A study of Mus musculus with 2 samples.

Results

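H3K27ac, an acetylation of histone H3 found at active promoters and enhancers, was described at 10 genes that move cholesterol out of macrophages or store and release lipid inside them: Abca1, Abcg1, Apoe, Mylip, Soat1, Nceh1, Plin2, Fabp4, Fabp5 and Lpl. The list was drawn up by gene symbol with no rule on measured values, although earlier results of these data were known. The genes are 10 of the 21938 protein-coding genes of GENCODE M21 on GRCm38 outside the mitochondrial chromosome. For each gene, peaks were taken from the gene body and 50 kb on either side. A promoter peak is one that overlaps the 1 kb on either side of any annotated start of the gene. The chromatin came from macrophages differentiated from bone marrow of C57BL/6J mice, with no stimulus and no lipid loading named in the labels. The labels name no allele or transgene, and give sex and age as not collected and the developmental stage as unknown. There were 2 biological replicates, from separate biosamples under the same donor entry, each made from 10 ng of DNA. No other group exists, so every result is a level or a position and not a response, and the spread between the replicates may be technical.

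Macrophages take up cholesterol with lipoproteins and dead cells and hydrolyse it in the lysosome, then either re-esterify it for storage in lipid droplets or pass it to lipoprotein acceptors. Oxysterols activate the liver X receptors, which pair with retinoid X receptors on DNA repeats of the half-site AGGTCA and are known to induce Abca1, Abcg1, Apoe, Mylip and Lpl. The peroxisome proliferator-activated receptors bind a closer-spaced repeat of the same half-site and are known for Plin2, Fabp4 and Lpl. Droplets that accumulate turn macrophages into foam cells, the lipid-laden cells of atherosclerotic plaque.

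The replicate lists held 29543 and 29345 peaks, and the replicated list, for which the authors used both libraries at once, held 32877. Each peak carries the authors' fold, a linear enrichment ratio that ranks peaks within its own list. Paired folds are given in the order replicate 1, replicate 2, and no source records a scaling of one list to the other. The sources used here give no read depth, so a missing peak means that the signal did not pass the authors' threshold, not that the mark was absent. All 8 macrophage markers examined had a promoter peak in both replicates (folds of 17.4 to 50.8 and 16.3 to 50.3), while none of 22 markers of adipocytes, fibroblasts, hepatocytes, lymphocytes and neutrophils had one in either.

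Promoter acetylation was found at 9 of the 10 genes in both replicates, the exception being Fabp4. Over all protein-coding genes the share with a promoter peak in both replicates was 39.4%. In the replicated list all 10 genes had a promoter peak, against 43.8% of all genes. Among the 9, the highest promoter peak of each gene had a median fold of 20.5 in replicate 1 and 20.4 in replicate 2. The same medians over the 8633 genes with a promoter peak in both replicates, called marked genes below, were 10.5 and 11.1. In each replicate 8 of the 9 genes lay above that median, and Apoe lay below it.

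By mean fold the order ran Nceh1, Soat1, Plin2, Fabp5, Abcg1, Mylip, Abca1, Lpl and Apoe, as the plot of promoter folds shows. The values of Fabp5 and Abcg1, of Abcg1 and Mylip, and of Mylip and Abca1 overlapped between replicates, so these genes had no order among neighbours beyond their spread. The other 5 steps of the order did not overlap. With 2 replicates no test of these differences was made.

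**Figure D1:**
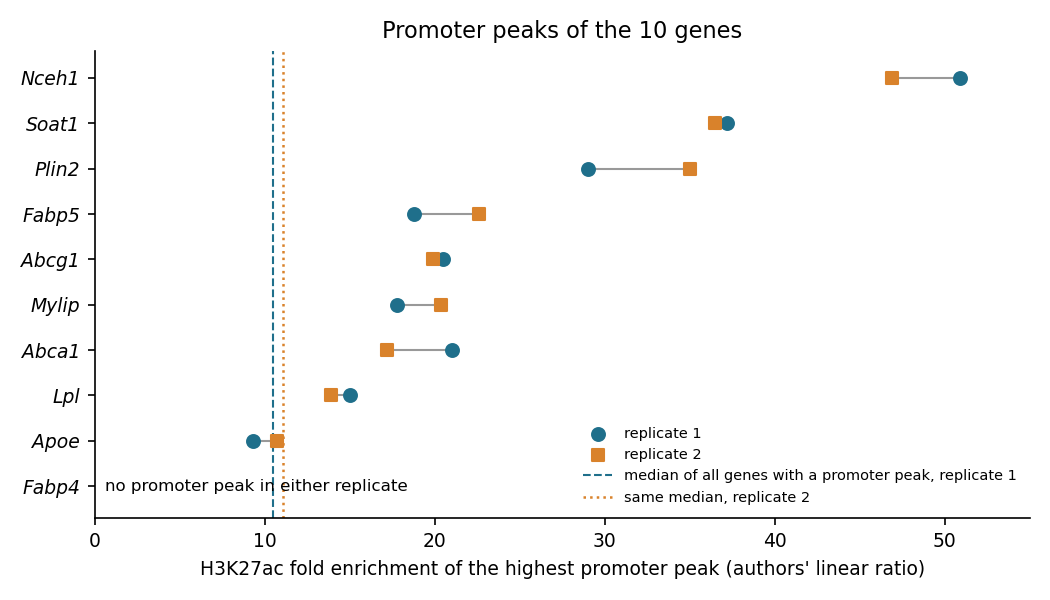
Fold enrichment (authors' linear ratio, x axis) of the highest promoter peak of each gene, with circles for replicate 1, squares for replicate 2 and vertical lines at the medians of all marked genes, 10.5 and 11.1. Nceh1 stands highest, at 50.9 and 46.9, Apoe falls below both lines, and Fabp4 has no promoter peak in either replicate.

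Outside the promoters, all 10 genes had at least 1 peak of replicate 1 that replicate 2 shared, against 63.4% of all protein-coding genes. The median was 5.50 shared non-promoter peaks a gene, with a range of 1 to 12, and the median over marked genes was 4.00. Since long genes have wide windows, the density was also taken: a median of 3.52 shared peaks per 100 kb of window at the 10 genes, against 2.66 at marked genes and 0.992 at all genes. Replicate 1 had 65 non-promoter peaks in the 10 windows, of which 61 (93.8%) overlapped a replicate 2 peak, close to the 91.3% of the whole list. Of the 65, 23 lay in introns, none in exons, 20 upstream and 22 downstream, and 9 lay within 1 kb of a start of another protein-coding gene. Replicate 2 had 66, of which 22 lay in introns. The map of peaks by distance from the 5′ end shows 3 layouts. Abca1 and Nceh1 had chains of intronic peaks, and Apoe lay in a dense gene cluster. At Plin2, Fabp5, Mylip and Lpl all shared non-promoter peaks lay outside the gene body, and a distal peak exceeded the promoter peak in both replicates. The margin was small at Lpl, 16.5 and 14.2 against 15.0 and 13.9. Abcg1, Soat1 and Fabp4 were not placed in any layout. The layouts do not exclude each other, since the strongest peak of the Abca1 window lay upstream of the gene.

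**Figure D2:**
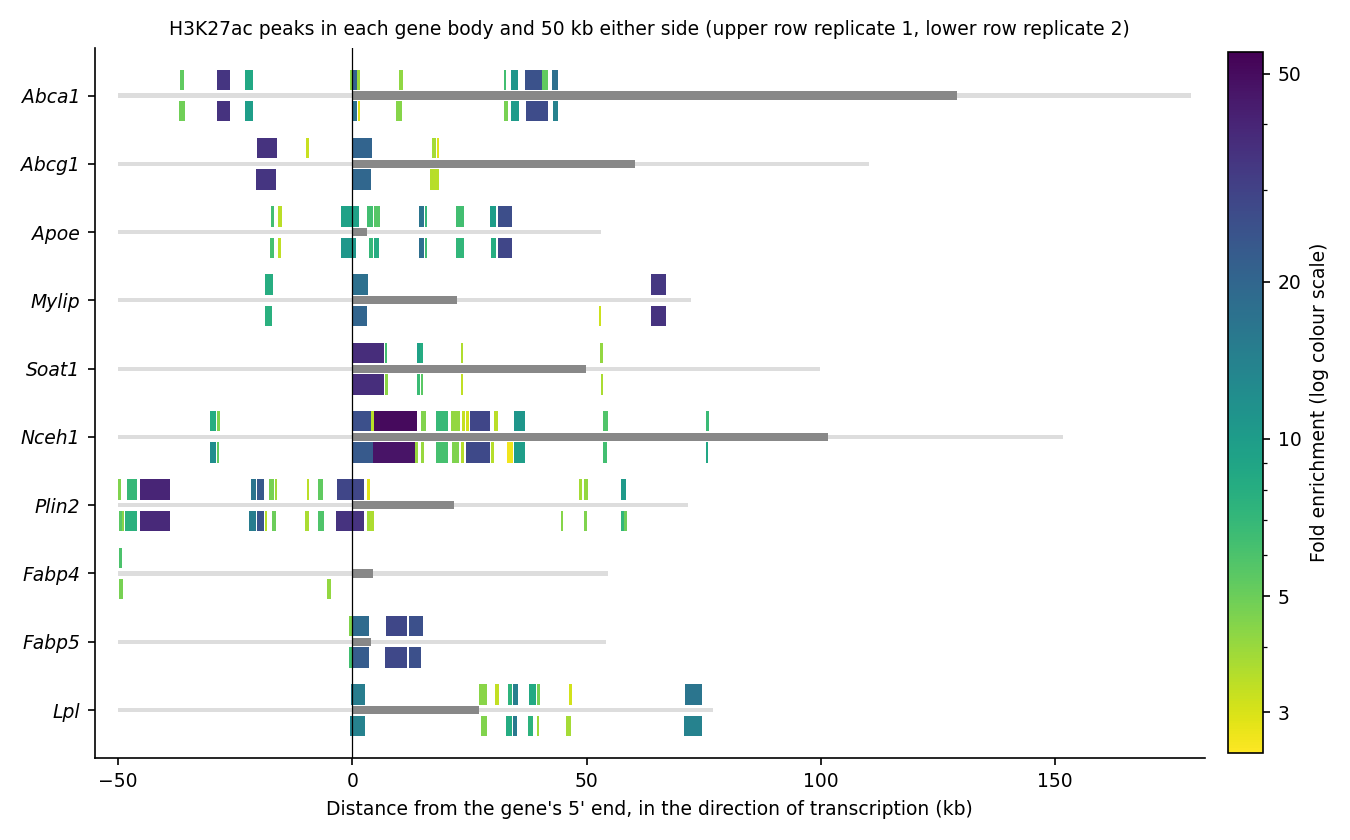
H3K27ac peaks in the window of each gene, by distance from the 5′ end in the direction of transcription (kb, x axis), with replicate 1 in the upper row and replicate 2 in the lower row of each gene, colour for fold on a log scale, dark grey for the gene body and light grey for the rest of the window. Nceh1 and Abca1 carry runs of intronic peaks, whereas all shared non-promoter peaks of Apoe, Mylip, Plin2, Fabp4, Fabp5 and Lpl lie outside the gene body.

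Abca1 (chr4:53030787-53159895, minus strand) encodes the transporter that loads phospholipid and cholesterol onto lipid-poor apolipoprotein A-I. Its promoter peak had folds of 21.0 and 17.2 (19.1 ± 2.67, SD, n = 2), above 83.4% and 72.9% of marked genes or equal to them. The peak did not cover the 5′ end: it ran from 19 to 1054 bp downstream in replicate 1 and from 18 to 1070 bp in replicate 2. A small peak of fold 4.30 lay upstream of the start in replicate 1 alone.

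The bases just before the Abca1 start were therefore in no called peak of either replicate, and the promoter is shown because it holds the direct repeat through which liver X receptors are known to act on this gene. The sequence is chr4:53159846-53160145 from the RefSeq promoter table (build GRCm38.p6), read along the gene's minus strand from 250 bases before to 50 bases after the start. Capitals mark an E-box, CACGTG, and the repeat, whose complement reads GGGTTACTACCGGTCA.
Abca1 promoter: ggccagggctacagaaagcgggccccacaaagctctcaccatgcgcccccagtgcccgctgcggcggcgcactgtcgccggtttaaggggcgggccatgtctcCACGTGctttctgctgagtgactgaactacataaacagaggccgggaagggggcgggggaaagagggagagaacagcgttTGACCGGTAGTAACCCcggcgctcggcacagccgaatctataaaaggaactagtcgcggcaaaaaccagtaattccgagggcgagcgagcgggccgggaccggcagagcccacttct

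The repeat lies from 67 to 52 bases before the start and differs from a perfect repeat of AGGTCA with 4 bases between the half-sites at 3 of the 12 half-site bases. It lay 71 bp from the nearest peak edge in replicate 1 and 70 bp in replicate 2. At that tolerance 20.1% of the 16522 promoters in the table held such a repeat on either strand, so the match is a description only.

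Abca1 had 7 shared intronic peaks and 3 shared upstream peaks, more shared non-promoter peaks than or as many as 96.4% of protein-coding genes. Its window is wide, and the density of 4.36 per 100 kb was at or above that of 82.2% of genes. The strongest of these peaks lay 27.5 kb upstream of the start, with folds of 34.2 and 34.9, both higher than the promoter's own. Within introns, a peak at 38730 bp had folds of 25.3 and 27, and a peak at 43208 bp had 17.7 and 14.1. Between them replicate 1 had a separate peak of fold 5.33 at 41195 bp, where replicate 2 had a single peak that joined it to the one at 38730 bp. A weaker peak at 34707 bp had 11.0 and 10.2. The strong intronic peaks thus formed a group within the gene, and no peak was called beyond 43885 bp in a gene body of 129109 bp.

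Abcg1 (chr17:31057675-31117988, plus strand) encodes the transporter that passes cholesterol to mature high-density lipoprotein. Its promoter peak had folds of 20.5 and 19.9 (20.2 ± 0.378, SD, n = 2), the smallest SD among the 9 genes, and ran from 102 to 4141 bp downstream of the start in replicate 1. As at Abca1, the strongest peak of the window lay upstream: 18.2 kb before the start, with folds of 35.1 and 34.0, at or above 98.5% and 98.0% of the peaks of its lists. Its summit region is printed as a distal element that exceeds the promoter at a sterol exporter (chr17:31038763-31039062, plus strand, intergenic). Capitals mark the AP-1 word TGANTCA, found in the 300 bases around the summit of 8.27% of all peaks. Outside the printed bases the same peak held direct repeats of AGGTCA with 2 mismatches. Those with a spacer of 4 lay at −19286 and −17923 bp from the start, and 1 with a spacer of 1 at −19098 bp.
Abcg1 distal peak: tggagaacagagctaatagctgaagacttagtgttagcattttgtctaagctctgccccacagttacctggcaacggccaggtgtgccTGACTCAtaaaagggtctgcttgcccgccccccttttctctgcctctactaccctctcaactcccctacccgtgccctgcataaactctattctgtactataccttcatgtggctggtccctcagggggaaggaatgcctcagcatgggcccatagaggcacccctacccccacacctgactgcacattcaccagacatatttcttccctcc

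Abcg1 also had weak intronic peaks, with folds of 3.79 and 3.47, around a direct repeat of AGGTCA with a spacer of 4 that carries 1 mismatch. The repeat is printed with its surroundings (chr17:31075663-31075762, plus strand, intron) because only 5 such repeats with at most 1 mismatch fell in the peaks of all 10 windows.
Abcg1 intronic repeat: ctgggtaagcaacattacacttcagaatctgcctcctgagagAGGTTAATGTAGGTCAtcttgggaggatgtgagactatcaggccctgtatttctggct
In replicate 2 a peak of fold 3.47 covered the repeat, whereas in replicate 1 it fell in a gap, 23 bp from the nearest peak edge.

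Apoe (chr7:19696109-19699188, minus strand) encodes apolipoprotein E, which macrophages secrete as a cholesterol acceptor. It had the lowest promoter folds of the 9 genes, 9.29 and 10.7 (10.0 ± 1.01, SD, n = 2), at the 44.2 and 48.9 percentile of marked genes. Unlike most of the others, the promoter peak extended mainly upstream of the start, and 38.7% and 25.5% of it lay downstream. The promoter is shown because its CpG content, an observed to expected ratio of 0.403, lay nearer to the median of genes without a promoter peak in both replicates (0.343) than to that of marked genes (0.791). The ratio was lower still at the Plin2 promoter, 0.363, and was 0.670 at Nceh1, 0.682 at Soat1, 0.818 at Mylip and 0.888 at Abca1. The Apoe sequence is chr7:19699139-19699438 on the minus strand, from the same RefSeq table, with none of the 6 motifs searched.
Apoe promoter: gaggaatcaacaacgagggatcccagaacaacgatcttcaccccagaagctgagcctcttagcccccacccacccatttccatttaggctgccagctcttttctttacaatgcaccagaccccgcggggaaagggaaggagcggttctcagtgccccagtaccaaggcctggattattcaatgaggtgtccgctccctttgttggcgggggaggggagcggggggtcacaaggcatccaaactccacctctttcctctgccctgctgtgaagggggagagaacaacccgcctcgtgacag

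The Apoe window held 9 shared peaks outside the promoter, a density of 8.73 per 100 kb, and all 9 lay closer to the 5′ end of another protein-coding gene than to that of Apoe. The neighbours whose promoters hold these peaks were the mitochondrial import gene Tomm40 (6.37 and 6.20), the apolipoprotein genes Apoc1 (5.68 and 8.21) and Apoc2 (6.37 and 7.21), and Clptm1 (26.5 and 28.8). These peaks cannot be given to one gene of the cluster by position. A peak 14737 bp downstream of the Apoe start, with folds of 16.5 and 17.9, lay more than 1 kb from every start of another protein-coding gene and exceeded the promoters of Apoe, Apoc1 and Apoc2. Between Apoe and Apoc1 lay a direct repeat with a spacer of 4 and 2 mismatches (chr7:19693477-19693576, minus strand, intergenic). It is printed as the nearest to the Apoe start among repeats of this kind inside peaks of the replicated list. Sequence between peaks was not searched.
Apoe downstream repeat: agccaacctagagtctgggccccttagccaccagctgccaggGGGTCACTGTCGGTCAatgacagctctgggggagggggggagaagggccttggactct
It was inside a peak of fold 5.68 in replicate 1 and 46 bp outside the nearest peak in replicate 2.

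Mylip (chr13:45389742-45412022, plus strand) encodes the ubiquitin ligase that marks lipoprotein receptors for degradation and so limits cholesterol uptake. Its promoter peak had folds of 17.8 and 20.4 (19.1 ± 1.85, SD, n = 2) and lay wholly downstream of the 5′ end, from 164 to 3321 bp in replicate 1. The gene body held no further peak. The strongest peak of the window lay 65356 bp downstream of the start, beyond the gene's end, with folds of 33.4 and 34.9, and the 5′ end of another protein-coding gene was nearer to it than that of Mylip. A peak 17.8 kb upstream had folds of 7.99 and 7.76.

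Soat1 (chr1:156424525-156474331, minus strand) encodes the enzyme that esterifies cholesterol for storage. Its promoter peak was 6619 bp wide in replicate 1 and 6635 bp in replicate 2, wider than 99.2% and 99.1% of the peaks of those lists or as wide. The folds were 37.2 and 36.5 (36.9 ± 0.449, SD, n = 2), the second highest of the 10 genes. The summit lay far inside the gene, 5254 and 5260 bp downstream of the 5′ end. Further into the gene the peaks were weak: 3 shared intronic peaks had folds between 3.61 and 9.36 in replicate 1. A perfect direct repeat of AGGTCA with a spacer of 1, the element of the peroxisome proliferator-activated receptors, lay 13751 bp into the gene. It was within a peak of fold 8.18 in the replicated list but outside the peaks of both replicates, by 55 and 63 bp. An identical copy of the repeat lay close by on the side of the 5′ end, outside the peaks of all of these lists.

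Nceh1 (chr3:27182965-27284608, plus strand) encodes a hydrolase of the endoplasmic reticulum that frees cholesterol from its esters. It had the highest promoter fold of the 10 genes, 50.9 and 46.9 (48.9 ± 2.84, SD, n = 2), at or above 99.9% and 99.7% of marked genes. That peak was 9268 and 8874 bp wide and covered an internal start, 5476 bp downstream of the 5′ end, which the annotation gives to a processed transcript without a coding sequence. The peak at the 5′ end itself had folds of 25.8 and 23.1. With the 5′ end alone counted, Nceh1 would therefore rank below Soat1 and Plin2. In the replicated list both peaks were joined into 1 of 13952 bp, the 28th widest of 32877 peaks.

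The Nceh1 5′ promoter is printed as the promoter beside the strongest peak of the set (chr3:27182754-27183053, plus strand, RefSeq table, from 250 bases before its start, which lies 39 bp downstream of the GENCODE 5′ end). Capitals mark the PU.1 word GAGGAAGT, read on the opposite strand, and an E-box, CACGTG. In replicate 1 the peak at the 5′ end began downstream of both words. In replicate 2 it began within the PU.1 word and covered the E-box. In the replicated list the peak covered the E-box but not the PU.1 word. PU.1 is the transcription factor that defines the myeloid lineage.
Nceh1 promoter: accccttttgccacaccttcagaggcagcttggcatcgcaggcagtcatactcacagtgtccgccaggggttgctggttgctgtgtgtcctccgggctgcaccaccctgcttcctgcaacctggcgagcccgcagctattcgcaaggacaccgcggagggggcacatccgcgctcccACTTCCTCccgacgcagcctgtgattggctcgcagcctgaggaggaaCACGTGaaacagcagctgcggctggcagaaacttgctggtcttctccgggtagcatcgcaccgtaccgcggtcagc
The PU.1 word was present in 3.15% of the 16522 promoters of the table and the E-box in 8.09%. A direct repeat with a spacer of 4 and 1 mismatch lay in the strongest peak, near the internal start, in an exon of the processed transcript (chr3:27188514-27188543, minus strand).
Nceh1 internal repeat: cgcagagAGCTCAGGTGAGGTCAtgttaca

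With 10 intronic and 2 upstream peaks shared, Nceh1 had the most shared non-promoter peaks of the 10 genes, as many as or more than 98.2% of protein-coding genes. By density, 5.95 per 100 kb of window, it was at or above 90.4% of genes. The strongest intronic peak lay 27218 bp from the 5′ end, with folds of 28.7 and 27.8. A second, at 35663 bp, had 10.8 and 9.89, and the other shared ones were at most 6.88 in replicate 1. The 2 upstream peaks lay within 1 kb of a start of Ect2, a cell division gene, whose promoter folds were 8.09 and 12.1. Over 5 measures in the 2 libraries (promoter fold in each replicate, shared intronic and distal peaks, and covered bases), the genes nearest to Nceh1 were Itgb5, an integrin subunit gene, at a standardised distance of 0.231, Trak1 at 0.462 and Pid1 at 0.576. Their promoter folds were 47.4 and 51.2, 40.0 and 44.2, and 36.8 and 39.5.

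Plin2 (chr4:86648386-86670060, minus strand) encodes perilipin 2, the main droplet coat protein of macrophages. Its promoter peak had folds of 29.0 and 35.0 (32.0 ± 4.22, SD, n = 2), the widest spread in absolute terms among the 9 genes, and replicate 2 was the higher. It spanned the start, from −3225 to 2562 bp in replicate 1. The promoter is shown because it lies inside the peak and holds a direct repeat with a spacer of 1 (chr4:86670010-86670309, minus strand, RefSeq table). Capitals mark that repeat, which has 2 mismatches and reads on the opposite strand, and an E-box at the start. Outside the printed bases the peak held another repeat with a spacer of 1 and 2 mismatches, at −1937 bp from the start.
Plin2 promoter: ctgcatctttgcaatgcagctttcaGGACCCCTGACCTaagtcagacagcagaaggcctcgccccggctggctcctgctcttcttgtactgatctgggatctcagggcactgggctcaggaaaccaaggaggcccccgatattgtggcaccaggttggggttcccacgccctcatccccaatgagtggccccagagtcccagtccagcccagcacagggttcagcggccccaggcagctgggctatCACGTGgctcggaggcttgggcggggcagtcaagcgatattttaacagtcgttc
Such a repeat was present in 3.44% of promoters, and Plin2 was the 1 gene with it among the 6 genes of the set that the table holds: Abca1, Apoe, Mylip, Nceh1, Plin2 and Soat1.

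Upstream of Plin2 lay the strongest distal peak of all 10 windows, 42.1 kb before the start, with folds of 39.9 and 38.4 and widths of 6378 and 6402 bp. The 5′ end of another protein-coding gene was nearer to it than that of Plin2. It ranked above 99.3% and 99.0% of the peaks of its lists or level with them. A pair of adjacent peaks at 19.6 and 21.1 kb upstream had folds of 23.5 and 25, and of 16.7 and 15.2. In all, Plin2 had 11 shared non-promoter peaks and none in its body, and the peaks of replicate 1 covered 19.5% of its window, the largest share of the 10 genes. The median was 8.92% for the 10 genes and 4.53% for marked genes. The nearest protein-coding 5′ end was that of Plin2 for 6 of the 11, and a peak in the window belonged to the promoter of Haus6 (10.3 and 7.21), a spindle assembly gene. The summit region of the strongest distal peak (chr4:86713518-86713817, minus strand, intergenic) is printed as the highest such element and held none of the 6 motifs.
Plin2 distal peak: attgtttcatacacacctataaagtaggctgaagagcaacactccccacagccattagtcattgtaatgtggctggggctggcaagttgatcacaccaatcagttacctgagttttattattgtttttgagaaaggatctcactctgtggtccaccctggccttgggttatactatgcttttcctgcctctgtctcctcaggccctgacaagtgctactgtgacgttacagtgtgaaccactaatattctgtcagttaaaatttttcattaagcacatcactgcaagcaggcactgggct

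The fatty acid binding proteins Fabp4 and Fabp5 are encoded on chromosome 3, in windows that do not overlap, and differed in their marks. Fabp4 (chr3:10204088-10208576, minus strand), the adipocyte form that macrophages also make, had no promoter peak in either replicate. The replicated list and the pooled list each had 1 there, of fold 3.99 and 367 bp, with its midpoint 140 bp downstream of the start. The nearest peak of a replicate lay 4.97 kb upstream, in replicate 2 alone, with a fold of 4.14. The 1 shared peak of its window was 49.5 kb upstream, with folds of 6.02 and 4.69, and another gene's 5′ end was nearer to it.

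Fabp5 (chr3:10012548-10016607, plus strand) encodes the epidermal form of the same protein family. Its promoter peak had folds of 18.8 and 22.6 (20.7 ± 2.73, SD, n = 2), and covered most of the short gene, from 71 to 3631 bp in replicate 1. A smaller peak before the start had folds of 4.47 and 6.37. Both shared distal peaks of Fabp5 lay beyond the gene's end and exceeded the promoter in both replicates: at 9434 bp from the 5′ end the folds were 28.6 and 28.3, and at 13610 bp they were 26.0 and 26.0. The summit region of the first is printed for comparison with the distal elements of Abcg1 and Plin2 (chr3:10023029-10023328, plus strand, in an exon of the annotated gene Gm38335). Capitals mark the AP-1 word TGANTCA.
Fabp5 distal peak: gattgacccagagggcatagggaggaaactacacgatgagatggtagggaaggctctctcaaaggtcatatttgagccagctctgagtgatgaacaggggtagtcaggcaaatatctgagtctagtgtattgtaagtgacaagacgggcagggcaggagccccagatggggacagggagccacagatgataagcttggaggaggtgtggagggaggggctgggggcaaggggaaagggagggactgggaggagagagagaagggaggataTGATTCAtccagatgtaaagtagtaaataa

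Lpl (chr8:68880491-68907448, plus strand) encodes lipoprotein lipase, which releases fatty acids from lipoprotein triglyceride at the cell surface. Its promoter peak had folds of 15.0 and 13.9 (14.4 ± 0.750, SD, n = 2) and extended from −350 to 2808 bp around the start in replicate 1. All 7 shared non-promoter peaks lay beyond the 3′ end of the gene, none of them nearer to another protein-coding 5′ end. The strongest were at 34810 bp, with folds of 14.5 and 15.6, and at 72744 bp, with 16.5 and 14.2. These folds were close to those of the promoter.

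Of the 5 direct repeats with a spacer of 4 and at most 1 mismatch in the peaks of the 10 windows, 3 lay at Lpl. All 32877 peaks of the replicated list held 518 such repeats, or 0.111 per 10 kb, against 0.301 in the windows. They are printed together, each on the strand that reads the half-site AGGTCA, since repeats of this kind are the known element of liver X receptors. The first lies 707 bp from the start (chr8:68881183-68881212, minus strand), in the first intron of the coding transcript and in an exon of a retained-intron transcript. The others lie beyond the gene's 3′ end, at 38024 bp (chr8:68918465-68918564, plus strand) and at 73766 bp (chr8:68954207-68954306, plus strand).
Lpl intronic repeat: tatagggAGGTCACCACCGGTCActacagc
Lpl downstream repeat, nearer: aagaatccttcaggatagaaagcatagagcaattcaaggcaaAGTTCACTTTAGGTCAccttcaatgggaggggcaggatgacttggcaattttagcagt
Lpl downstream repeat, farther: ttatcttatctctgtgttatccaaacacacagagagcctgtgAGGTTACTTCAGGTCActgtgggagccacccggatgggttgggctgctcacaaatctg
All 3 lay inside peaks of both replicates, with folds of 15.0 and 13.9, of 8.51 and 7.54, and of 16.5 and 14.2. The farthest was 18 bp from the summit of its peak in the replicated list, the intronic one 200 bp and the nearer downstream one 251 bp. The repeats at Abcg1 and Nceh1 with at most 1 mismatch lay 520 and 5388 bp from the summits of their peaks.

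Over the whole set, repeats with a spacer of 4 and at most 2 mismatches occurred 1.74 times per 10 kb of peak sequence in the 86 peaks of the replicated list within the windows (29 matches), against 1.27 in all 32877 peaks. How far the windows stood above all peaks depended on the mismatch limit: with at most 3 mismatches the densities were 11.5 and 10.4. Repeats with a spacer of 1 occurred 1.74 times per 10 kb (29 matches), against 1.69 in all peaks. Per 10 kb, the AP-1 word TGANTCA had densities of 3.79 in the windows and 3.80 in all peaks, the C/EBP word TTGCNNAA of 3.91 and 4.65, and the E-box CACGTG of 1.98 and 1.74. The PU.1 word GAGGAAGT had 0.662 (11 matches) and 1.33. All motifs were read on both strands and overlapping matches were counted. The counts at the 10 genes are small, no test was made, and a match does not show that a factor was bound.

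Within the promoter region, acetylation lay mainly on the transcribed side. Over all genes with a peak within 1 kb of the 5′ end, the median share of that peak downstream of the 5′ end was 68.4% in replicate 1 and 68.0% in replicate 2, and the median summit lay 187 and 195 bp downstream. The share lay above these medians in both replicates at 7 of the 9 genes, and below them at Apoe and Plin2. The lowest value of the 7 was 85.8%, and how many of all genes reach it was not counted. At Abca1, Abcg1, Mylip and Soat1 the share was 100% in both, so the strongest promoter peak did not reach the 5′ end. Over all genes with a peak there, the peak covered the 5′ end at only 38.1% in replicate 1 and 44.2% in replicate 2. A peak that does not cover it was thus the more common case. The plot around the 5′ ends shows the edges of these peaks in both replicates.

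**Figure D3:**
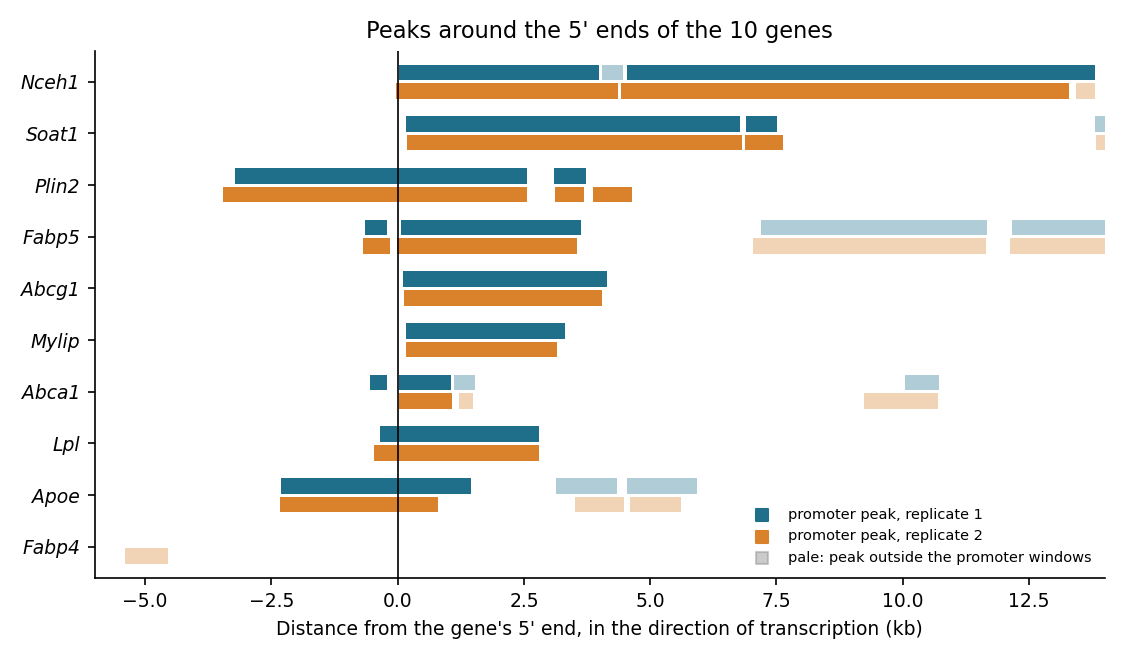
Peaks around the 5′ end of each gene (distance in kb, x axis, in the direction of transcription), with replicate 1 in blue above replicate 2 in orange and pale bars for peaks outside the promoter windows. The strongest promoter peaks of Abca1, Abcg1, Mylip and Soat1 begin downstream of the 5′ end in both replicates (Abca1 also has a small upstream peak in replicate 1), whereas those of Plin2 and Apoe extend over 2 kb upstream.

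The replicates gave close folds for strong peaks of these windows. For the 27 shared peaks with a fold of 10 or more in replicate 1, the ratio of the replicate 2 fold to the replicate 1 fold ran from 0.698 to 1.21. The central 90% of these ratios ran from 0.802 to 1.19. For the 9623 such peaks of the whole list the central 90% ran from 0.807 to 1.29 and the full range from 0.530 to 4.85. Peaks found in a single replicate were weak: 5 in replicate 1, with folds of 3.23 to 4.30, and 9 in replicate 2, with folds of 2.68 to 4.36. Of these, 4 and 8 overlapped a peak of the replicated list.

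**Figure D4:**
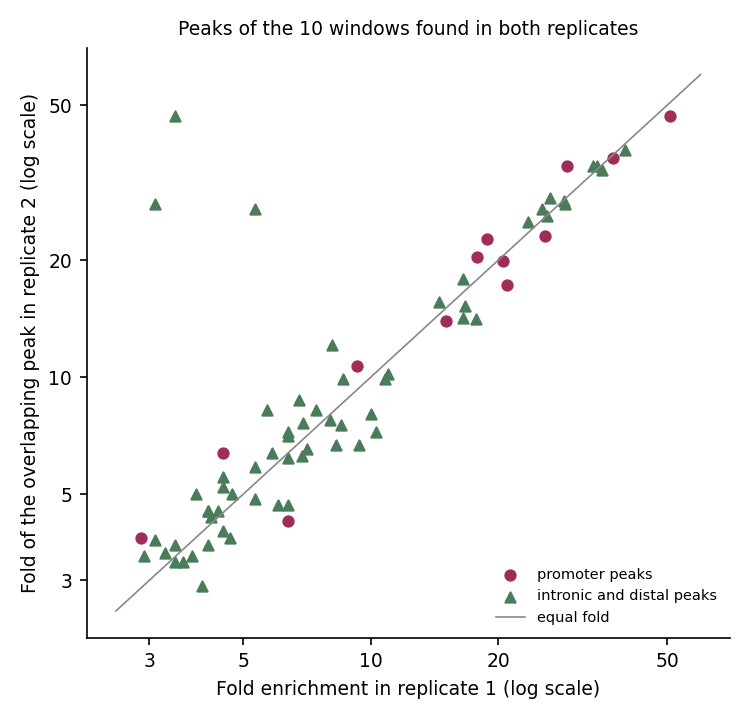
Fold of each peak of replicate 1 in the 10 windows (x axis) and of the highest overlapping peak of replicate 2 (y axis), both on log scales, with circles for promoter peaks, triangles for intronic and distal peaks and a line of equal fold. Points with a replicate 1 fold of 10 or more lie within a ratio of 0.698 to 1.21 of the line, and the 3 triangles far above it are small replicate 1 peaks overlapped by a wide replicate 2 peak.

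Other genes of sterol and lipid handling were marked at 36 of 75 promoters in both replicates (48.0%, against 39.4% of all protein-coding genes), and the share differed by role. All 9 nuclear receptors and regulators were marked, among them Nr1h3, which encodes liver X receptor alpha (27.7 and 18.9). A start of Acp2 lies within 1 kb of a start of Nr1h3, so that peak cannot be given to either gene. Among these regulators, Rxrb and Ncor1 also have a start of another gene within 1 kb, and so do some marked genes of other roles. Of the genes listed under ester hydrolysis and lysosomal export 7 of 10 were marked, led by the lysosomal acid lipase gene Lipa (40.8 and 42.2) and the lysosomal cholesterol exporter gene Npc1 (39.7 and 41.4), but not Ces1d or Mgll. The 7 include Soat2 (19.5 and 23.0), which encodes an esterifying enzyme like Soat1 and neither hydrolyses esters nor exports cholesterol. Abhd5 had a promoter peak in replicate 1 alone, of fold 5.68.

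Of 9 other transporters and acceptors 5 were marked, including the lipoprotein receptor gene Scarb1 (16.2 and 17.4) and the phospholipid transfer gene Pltp (16.0 and 15.1), while Abcg4 and Apoa1 had no promoter peak. Of 9 uptake receptors 4 were marked, including Lrp1 (33.4 and 38.7), and Cxcl16 and Marco were without a peak in either replicate. The replicated list had a promoter peak of fold 3.34 at Cxcl16 and none at Marco. Beside Plin2, 5 of 14 droplet genes were marked, including the perilipin gene Plin3 (20.5 and 23.0) and the triglyceride synthesis gene Dgat2 (11.7 and 11.7), and Cidea and Cideb were not.

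Of 13 genes of fatty acid binding and activation 4 were marked, including the fatty acid transport gene Slc27a1 (35.6 and 39.5) and the acyl-CoA synthetase gene Acsl4 (20.0 and 20.6). The 7 other binding protein genes of the Fabp family in that list, Fabp1 among them, were without a promoter peak in both libraries, as was Acsl1. Of 7 partners and relatives of lipoprotein lipase only the maturation factor gene Lmf1 was marked (6.02 and 6.87), and Angptl4 and Apoa5 were not. Of 4 oxysterol enzymes only Cyp27a1 was marked (16.1 and 15.4), and Ch25h and Cyp46a1 were not. Differences between the groups were not tested.

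**Figure D5:**
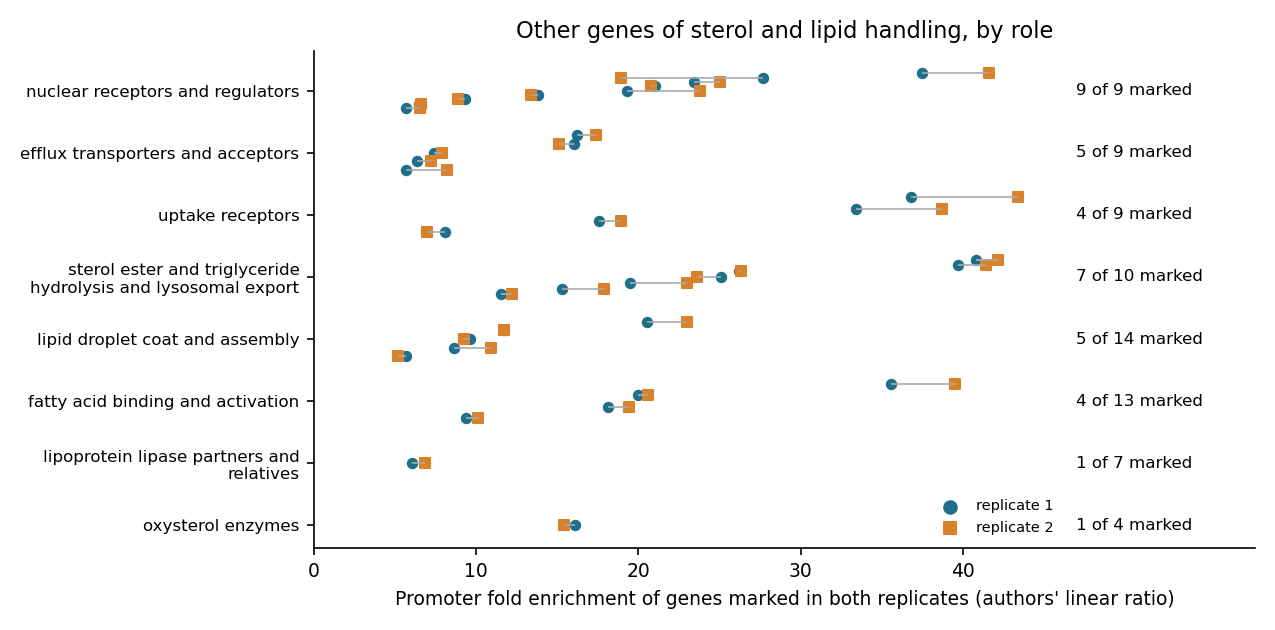
Promoter folds (authors' linear ratio, x axis) of the other genes of sterol and lipid handling that were marked in both replicates, by role, with circles for replicate 1, squares for replicate 2 and a line joining the values of a gene. Regulators were marked at 9 of 9 promoters, some of them within 1 kb of another gene's start, and lipoprotein lipase partners at 1 of 7.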

How the data were processed

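H3K27ac was profiled by chromatin immunoprecipitation and sequencing in 2 replicates of 1 group. Per the labels and the deposited text files, mm10 peaks were listed for each replicate on its own (pseudoreplicated peaks), and 2 further lists, replicated and pooled pseudoreplicated, rest on both libraries. The fold of a peak is a linear ratio deposited by the authors, and its q-value was deposited by the authors on a −log10 scale. The aligner, the caller and the depth are not given in the sources used here, so no interval for depth could be given. The lists of pooled libraries have no SD or n.

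All peaks fell within the chromosome lengths of GRCm38.p6, whose sequence and GENCODE M21 genes were used. Peaks were shared when they overlapped by at least 1 bp. Promoter peaks overlapped 1 kb on either side of any annotated start, and the remaining peaks were placed by midpoint. Direct repeats were allowed 2 mismatches over the half-sites, at a spacer of 4 or 1, and 300-base promoters came from the RefSeq table, which matched 6 of the 10 genes. Placement and motif search were tested on simulated data. Python 3.11.15, numpy 2.4.6, pandas 2.3.3 and matplotlib 3.10.9 were used.

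The genes and lists were chosen with earlier results of these data known. Named genes were, for each role, the 2 marked ones of highest replicated-list fold and, by alphabet, the first 2 that lacked a promoter peak in both replicates. Neighbours whose promoter holds a peak of a window were also named, up to 3 for each gene, nearest first, and so were the 3 genes most like Nceh1. Clptm1, Abhd5, Soat2, Rxrb and Ncor1 were named after their values were seen. Some genes that this rule takes are not reported here. With 1 group no test was made. Alternatives were other promoter windows, flanks, overlaps, lists, a −log10 q of at least 5 and other mismatch limits.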

Additional observations from a re-analysis of the deposited data

How the results depend on the processing

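The count of 9 genes with a promoter peak in both replicates stayed at 9 with promoter windows of 2.5 kb and 500 bp, with the 5′ end alone, with a −log10 q of at least 5 and in each replicate alone (9 to 9), and was 10 in the replicated and the pooled list. The 36 marked genes of the wider lipid list became 31 to 39 under its alternatives (36 to 37 in a replicate alone). The 61 shared non-promoter peaks became 47 to 85 (65 to 66 in a replicate alone). The 29 direct repeats with a spacer of 4 and at most 2 mismatches became 5 with at most 1 mismatch and 192 with at most 3, and their density in the windows and in all peaks went from 1.74 and 1.27 per 10 kb to 0.301 and 0.111, and to 11.5 and 10.4. Counts of shared peaks of single genes stayed within 1.5 times of the reported count for all 10 genes with an overlap of 50% of both peaks, and moved further for 3 genes with a flank of 25 kb, for 4 with 100 kb and for 4 when peaks were given to the nearest 5′ end. The last of these took Apoe from 9 to 0, Plin2 from 11 to 6, Mylip from 2 to 1 and Fabp4 from 1 to 0. No paired analysis was possible because the replicates form 1 group. Depth limits what a missing peak means, most of all at Fabp4, and the shared donor entry limits what the spread between replicates covers.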
